A study of Mus musculus with 12 samples.

Results

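The 10 genes described here are 7 immediate early genes (Fos, Fosb, Jun, Junb, Egr1, Ier2 and Ier3) and 3 heat shock genes (Hspa1a, Hspa1b and Hsph1). They were taken as every probe set, a group of short probes against one transcript, to which the annotation of the array gives exactly 1 of these symbols. That gave 14 probe sets for 10 genes, out of 18194 genes with a probe set of a single symbol. Jun had 2 probe sets, Hspa1b had 3, Hsph1 had 2 and the others had 1 each. Where a gene had several, the brightest over all arrays stands for the gene and the others are given beside it.

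RNA came from mouse embryonic stem cells in which both copies of Thap11, the gene for the zinc finger protein Ronin, carry flox sites. The knockout cells are CreERT2; Ronin flox/flox, in which tamoxifen lets the Cre recombinase enter the nucleus and delete the gene. The control cells are Ronin flox/flox without CreERT2. Tamoxifen (0.25 µM) was given to both, and cells were collected on days 1.5, 3 and 6 of it, so the drug is shared. Each of the 6 groups has 2 arrays, 12 in all. What CreERT2 itself does, or how the 2 lines differ otherwise, cannot be told apart from the loss of Thap11. No label states whether the arrays within a group derive from independent cultures. The p-values therefore reflect array-to-array spread that may be technical. Cells were split on day 4, and the day of treatment cannot be told apart from plate, cell density, or the time since plating or splitting.

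Immediate early genes are switched on within minutes of a growth factor, serum or stress signal, without the need for new protein. Many are driven through the ERK kinases by serum response factor and its Elk partners at the CArG box, and Fos also through cyclic AMP response element sequences. Their products are mostly transcription factors: Fos and Jun proteins pair to form AP-1, and Egr1 is a zinc finger factor. Heat shock genes encode chaperones that hold or refold other proteins. Heat shock factor 1 turns these genes on at repeats of GAA and its reverse complement, TTC.

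The targeted gene was low in every knockout array. Thap11 read 327 and 354 on the knockout arrays and 1262 and 1181 on the control arrays of day 1.5, 110 and 92.7 (knockout) against 1279 and 1290 (control) on day 3, and 50.6 and 51.5 (knockout) against 1305 and 1382 (control) on day 6. The summed intensity of 11 embryonic stem cell markers ran from 78340 to 81700 over all 12 arrays, with Dppa5a alone at averages of 24170 to 25600. Such sums are carried by their brightest probe sets, so single markers are given further on. The 10 extraembryonic endoderm markers summed to 2135 to 2183 on the knockout arrays and 3357 to 3421 on the control arrays of day 1.5, to 1297 to 1311 in knockout and 1182 to 1277 in control cells of day 3, and to 3633 to 3696 in knockout and 3530 to 3624 in control cells of day 6. The 18 fibroblast or feeder markers summed to 8057 to 8101 in knockout and 10010 to 10330 in control cells of day 1.5, to 8731 to 8981 in knockout and 7799 to 8207 in control cells of day 3, and to 12890 to 13070 in knockout and 10890 to 11210 in control cells of day 6. The 6 primed epiblast markers summed to 7039 to 7117 in knockout and 7743 to 7762 in control cells of day 1.5, to 7579 to 7840 in knockout and 6767 to 6842 in control cells of day 3, and to 6393 to 6444 in knockout and 7405 to 7409 in control cells of day 6. In such bulk RNA, fewer cells of a type and less RNA per cell cannot be told apart, and the part of these cell types in the results was not tested.

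Values are intensities on a linear scale, and fold changes are given as differences of log2 intensity with the standard error. A gene is called where its adjusted p from limma, by the Benjamini-Hochberg method over all 18194 genes, was under 0.05. Levels of different probe sets are not set against each other, since each has its own probe response.

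Single markers did not always follow these sums. Of all genes, 5.93% were higher and 3.98% lower in knockout cells on day 1.5, 13.3% and 10.0% on day 3, and 17.2% and 15.3% on day 6. Of the 11 stem cell markers, 0 were higher and 2 lower on day 1.5, 1 and 4 on day 3, and 0 and 3 on day 6. Klf4 was lower on each day (-0.42, -0.40 and -0.44), Tfcp2l1 on days 1.5 and 3 (-0.21 and -0.28), Dppa3 on days 3 and 6 (-0.64 and -0.62), Esrrb on day 3 (-0.26) and Utf1 on day 6 (-0.295), while Zfp42 was higher on day 3 (0.21). Pou5f1, Nanog and Sox2 passed on no day. Of the 10 endoderm markers, 0 were higher and 5 lower on day 1.5, 3 and 1 on day 3, and 1 and 3 on day 6. The endoderm sum of day 6 is mostly Col4a1, at 2079 in knockout and 1787 in control cells and not called, whereas Dab2 (-0.65), Gata6 (-0.63) and Gata4 (-0.33) were lower and Foxa2 was higher (1.02). Of the 6 primed epiblast markers, 0 were higher and 4 lower on day 1.5, 3 and 0 on day 3, and 3 and 2 on day 6. Their sum of day 6 is mostly Dnmt3b, at 4689 in knockout and 5724 in control cells (-0.29), and Pou3f1 was also lower (-0.20), whereas Foxd3 (0.47), Lef1 (0.44) and Fgf5 (0.40) were higher. The 18 fibroblast or feeder markers had 0 higher and 6 lower on day 1.5, 6 and 1 on day 3, and 4 and 4 on day 6. Without any 1 array of day 1.5 the stem cell markers had 1 lower, without the second knockout array of day 3 the endoderm markers had 1 higher, and without any 1 array of day 6 the primed markers had 1 lower. The 1 higher stem cell marker of day 3 was lost without the first control array or either knockout array, and the 1 lower fibroblast marker of day 3 was not called without the first knockout array.

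The immediate early genes did not move as a block in knockout cells. Fos was lower on days 1.5 and 6 and Jun was lower on day 1.5 and higher on day 6, while Egr1 was 1.90-fold higher on day 3, when it was at its lowest in control cells.

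**Figure D1:**
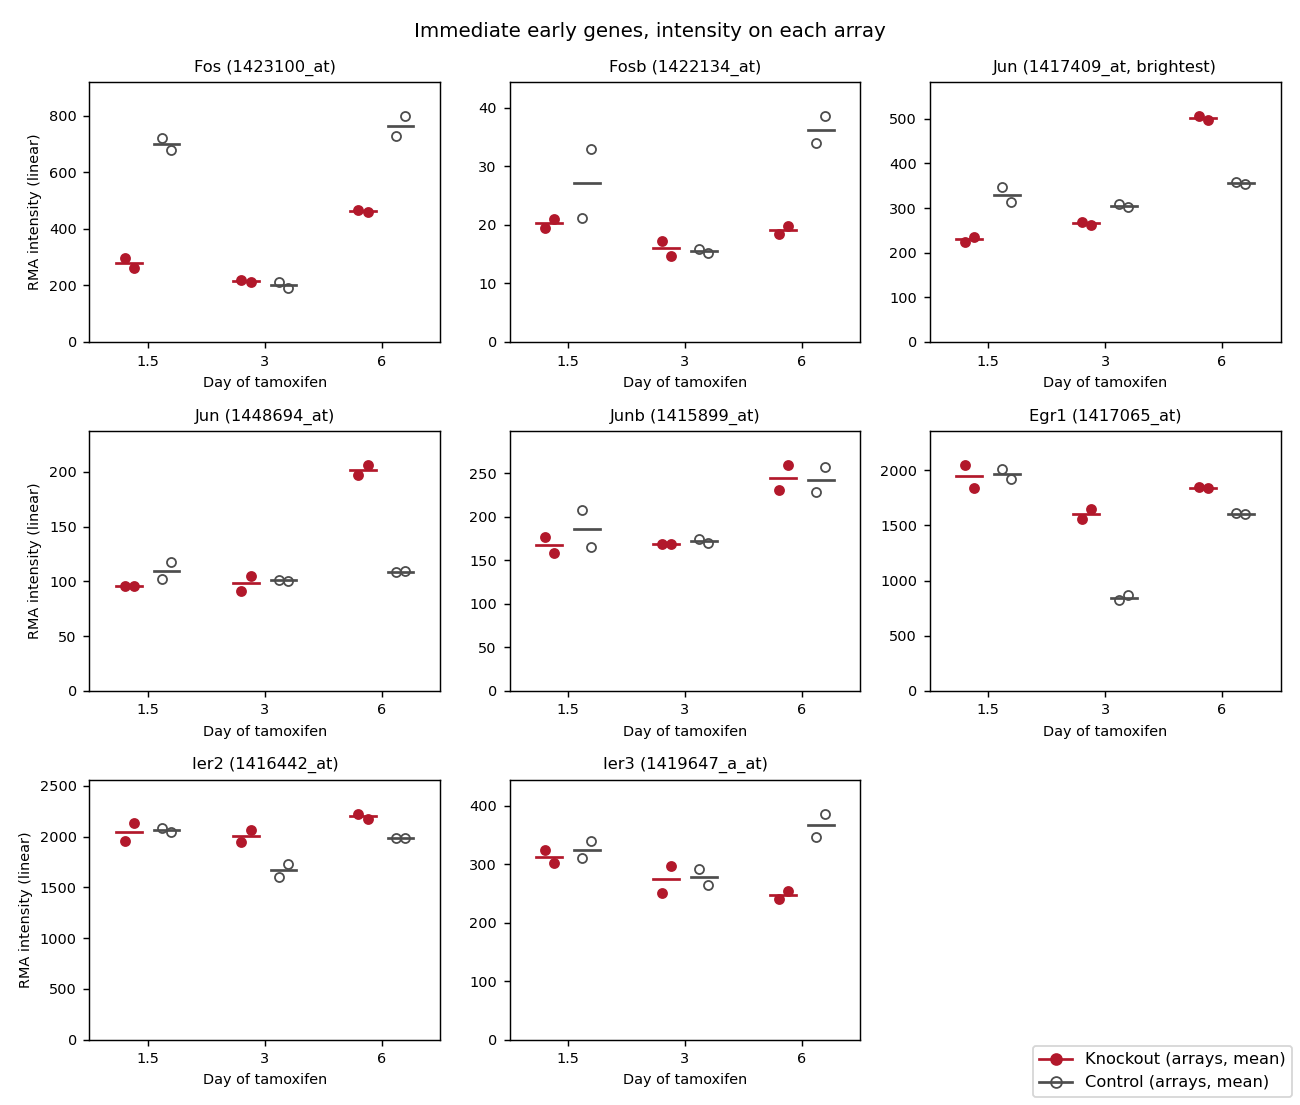
RMA intensity (linear axis from 0) of the 8 probe sets of the 7 immediate early genes on each array, by day of tamoxifen. Filled points are knockout arrays and open points control arrays, with a bar at the mean of 2. Fos in control cells was at 677 to 798 on days 1.5 and 6 and at 190.5 to 213 on day 3, and Egr1 in control cells was at 822 and 864 on day 3, below its other 10 arrays.

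Fos, the AP-1 partner that Jun needs for its most active dimers, read 296 and 262 on the knockout arrays and 721 and 677 on the control arrays of day 1.5. It read 218 and 212 on the knockout arrays and 213 and 190.5 on the control arrays of day 3. It read 467 and 461 on the knockout arrays and 727 and 798 on the control arrays of day 6. The groups did not overlap on days 1.5 and 6 and overlapped on day 3. The log2 difference was -1.33 ± 0.081 on day 1.5 (0.399 of the control level, adjusted p = 5.7e-05), 0.093 ± 0.081 on day 3 (adjusted p = 0.49) and -0.715 ± 0.081 on day 6 (0.609 of the control level, adjusted p = 0.00017). Fos was under its control levels in knockout cells of days 1.5 and 6, and in control cells it was low on day 3.

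The Fos promoter is shown because Fos had the greatest log2 difference of the 10 genes in knockout against control. The RefSeq window of 250 bases before and 50 bases from the start of the transcript on, on the GRCm38.p6 assembly, is chr12:85473640-85473939 on the plus strand. Capitals mark TGACGT, a part of the cyclic AMP response element TGACGTCA, which was looked for only after the windows had been seen.
Fos: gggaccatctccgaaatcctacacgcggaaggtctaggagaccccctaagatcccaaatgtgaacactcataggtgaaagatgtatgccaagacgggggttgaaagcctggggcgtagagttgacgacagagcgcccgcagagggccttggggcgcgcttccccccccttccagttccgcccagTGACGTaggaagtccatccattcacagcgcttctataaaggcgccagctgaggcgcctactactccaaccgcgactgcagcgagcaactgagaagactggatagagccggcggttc
The match begins 66 bases before the start. TGACGT, on either strand, was found in 7.51% of 32851 promoter windows of this kind. RefSeq windows were matched for 8 of the 10 members, all but Ier2 and Egr1. The CArG box (1.63% of all windows), TGACGTCA (1.79%) and ACTACANNT (4.16%), a core of the sequence known to be bound by Ronin, were found on neither strand in any of the 8 members' windows, which says only that these letters are not in them.

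Fosb, a close relative of Fos, was dim, with intensities of 14.7 to 38.5 over the 12 arrays, among the dimmest 40% of genes. It read 19.5 and 21.0 on the knockout arrays and 21.2 and 33.0 on the control arrays of day 1.5. On day 3 it was at 17.2 and 14.7 in knockout cells and at 15.9 and 15.2 in control cells. By day 6 it was at 18.4 and 19.8 in knockout cells and at 34.0 and 38.5 in control cells, groups that did not overlap. The log2 difference passed the threshold on day 6 (-0.92 ± 0.18, adjusted p = 0.0032) and not on days 1.5 (-0.39 ± 0.18, adjusted p = 0.23) and 3 (0.034 ± 0.18, adjusted p = 0.92).

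Jun, the central AP-1 subunit, was under its control level in knockout cells of day 1.5 and above it on day 6. Its brightest probe set read 224 and 236 on the knockout arrays and 346 and 314 on the control arrays of day 1.5, 269 and 262 on the knockout arrays and 308 and 302 on the control arrays of day 3, and 506 and 496 on the knockout arrays and 359 and 354 on the control arrays of day 6. The groups did not overlap on any day. The log2 difference was -0.52 ± 0.059 on day 1.5 (adjusted p = 0.0012), -0.20 ± 0.059 on day 3 (adjusted p = 0.039) and 0.49 ± 0.059 on day 6 (adjusted p = 0.00025). The day 3 call was lost when any 1 of the 4 arrays compared was left out, with the highest adjusted p of all alternatives at 0.15. The second Jun probe set read 96.1 and 96.1 on the knockout arrays and 102 and 118 on the control arrays of day 1.5, and 197 and 206 on the knockout arrays and 109 and 109 on the control arrays of day 6. Its difference on day 6 was 0.89 ± 0.089 (limma over all 45101 probe sets, adjusted p = 0.00013), and it did not pass on day 1.5 (-0.19, adjusted p = 0.34) or day 3 (-0.044, adjusted p = 0.83). In that limma fit the brightest probe set passed on days 1.5 and 6 and not on day 3 (adjusted p = 0.09). So both probe sets were higher on day 6, whereas the lower level of day 1.5 was called by 1 of them.

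Of the 5 immediate early genes with a RefSeq window, Jun alone had GAANNTTC, a heat shock type motif. Its window is chr4:95052173-95052472 on the minus strand of GRCm38.p6 (RefSeq), and capitals mark GAANNTTC.
Jun: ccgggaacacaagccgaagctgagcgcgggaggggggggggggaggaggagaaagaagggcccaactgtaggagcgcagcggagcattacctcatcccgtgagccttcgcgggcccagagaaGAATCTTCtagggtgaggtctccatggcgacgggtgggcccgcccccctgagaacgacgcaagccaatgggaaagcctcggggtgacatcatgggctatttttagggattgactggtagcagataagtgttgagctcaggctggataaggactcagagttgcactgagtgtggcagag
It begins 128 bases before the start, and 7.86% of all windows hold GAANNTTC. A match is a description of the letters and not a site.

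Junb, a Jun relative that often counters Jun, did not pass the test on any day. It read 177 and 158 on the knockout arrays and 208 and 165 on the control arrays of day 1.5, 169 and 168 on the knockout arrays and 174 and 169 on the control arrays of day 3, and 230 and 259 on the knockout arrays and 228 and 257 on the control arrays of day 6. The 95% interval of its log2 difference on day 6 was -0.24 to 0.27. Junb was brighter on day 6 than on day 3 in both genotypes, by 0.54 ± 0.11 in knockout cells (adjusted p = 0.0058) and by 0.50 ± 0.11 in control cells (adjusted p = 0.011). The control call was lost without the second control array of day 3 or without the second of day 6.

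Egr1, the zinc finger factor that is among the first to answer ERK signalling, read 2047 and 1843 on the knockout arrays and 2014 and 1923 on the control arrays of day 1.5. On day 3 the knockout arrays were at 1559 and 1648 and the control arrays at 822 and 864, with no overlap. The knockout arrays of day 6 were at 1846 and 1838 and the control arrays at 1613 and 1599. The log2 difference was -0.019 ± 0.064 on day 1.5 (adjusted p = 0.90), 0.93 ± 0.064 on day 3 (1.90-fold, adjusted p = 2e-05) and 0.20 ± 0.064 on day 6 (adjusted p = 0.041). The call of day 6 was lost when any 1 of the 4 arrays of that day was left out. From day 1.5 to day 3 the log2 change of Egr1 was -0.28 ± 0.064 in knockout cells (adjusted p = 0.016) and -1.22 ± 0.064 in control cells (adjusted p = 5.5e-06).

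Ier2, a nuclear immediate early protein, was also higher in knockout cells on day 3. It read 1956 and 2138 on the knockout arrays and 2081 and 2044 on the control arrays of day 1.5, 1949 and 2066 on the knockout arrays and 1604 and 1734 on the control arrays of day 3, and 2225 and 2174 on the knockout arrays and 1988 and 1991 on the control arrays of day 6. It passed on day 3 (0.27 ± 0.063, adjusted p = 0.014) and not on day 1.5 (-0.012, adjusted p = 0.94) or day 6 (0.145 ± 0.063, adjusted p = 0.12). The day 3 call was lost without the first control or the second knockout array, and in a fit to the 4 arrays of day 3 alone. Against the controls of days 1.5 and 6 its difference was -0.013 (adjusted p = 0.89).

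Ier3, an immediate early gene linked to survival and ERK signalling, passed the test on day 6 alone. It read 324 and 302 on the knockout arrays and 310 and 339 on the control arrays of day 1.5, 251 and 296 on the knockout arrays and 292 and 264 on the control arrays of day 3, and 240.0 and 254 on the knockout arrays and 346 and 386 on the control arrays of day 6. The groups overlapped on days 1.5 and 3 and did not on day 6. Its log2 difference was -0.052 ± 0.096 on day 1.5 (adjusted p = 0.81), -0.025 ± 0.096 on day 3 (adjusted p = 0.90) and -0.57 ± 0.096 on day 6 (adjusted p = 0.0017).

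Hspa1b and Hsph1 were higher in knockout cells on day 3 and Hsph1 was lower on days 1.5 and 6. Hspa1a and Hspa1b, which encode the inducible Hsp70 chaperone, lie close together on chromosome 17 as near copies, and probes of one may read the other.

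**Figure D2:**
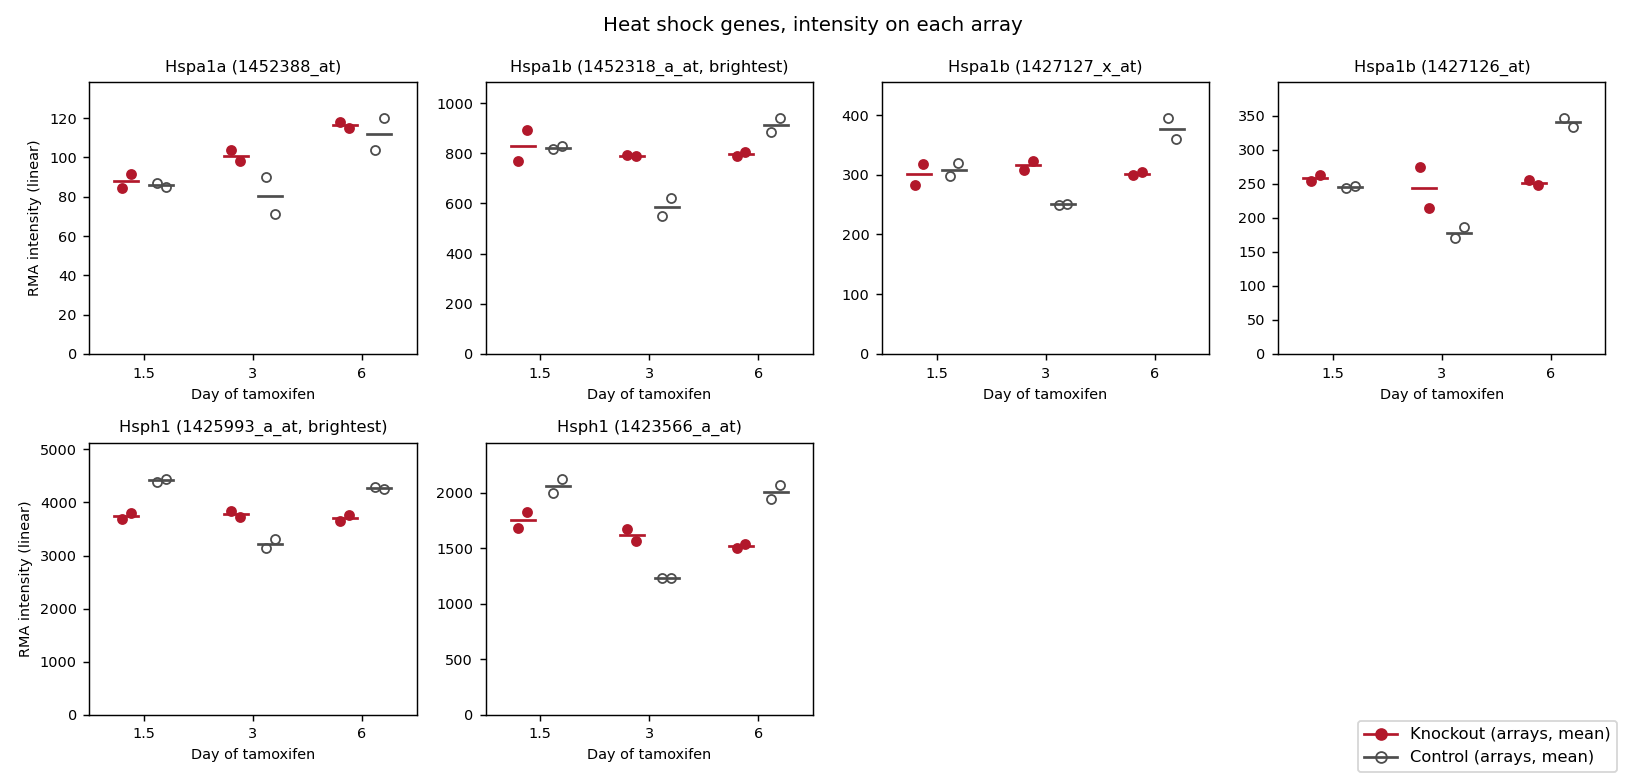
RMA intensity (linear axis from 0) of the 6 probe sets of the 3 heat shock genes on each array, by day of tamoxifen, with knockout arrays filled, control arrays open and a bar at the mean of 2. In the 3 Hspa1b and 2 Hsph1 panels, both control arrays of day 3 lie under both knockout arrays, and on day 6 both control arrays lie above both knockout arrays.

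The 2 Hsp70 windows are printed to show how alike these genes are. They are the RefSeq windows chr17:34972107-34972406 (Hspa1a) and chr17:34959189-34959488 (Hspa1b), both on the minus strand of GRCm38.p6, and capitals mark the bases that differ between them.
Hspa1a: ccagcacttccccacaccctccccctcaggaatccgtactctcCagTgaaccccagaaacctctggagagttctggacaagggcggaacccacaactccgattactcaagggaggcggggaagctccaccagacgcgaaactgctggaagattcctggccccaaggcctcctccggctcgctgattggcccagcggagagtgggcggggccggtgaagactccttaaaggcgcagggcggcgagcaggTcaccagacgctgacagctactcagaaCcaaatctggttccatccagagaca
Hspa1b: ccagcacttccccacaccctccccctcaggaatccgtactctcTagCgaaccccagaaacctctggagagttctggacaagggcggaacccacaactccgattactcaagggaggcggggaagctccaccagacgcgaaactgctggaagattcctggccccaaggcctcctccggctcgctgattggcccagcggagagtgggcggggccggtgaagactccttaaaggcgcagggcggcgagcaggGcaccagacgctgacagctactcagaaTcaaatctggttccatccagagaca
They share 296 of 300 bases (98.7%). Of the 4 that differ, 3 lie before the start. Both hold GAANNTTC, 104 bases before the start, in the stretch that is the same in both.

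Hspa1a read 84.3 and 91.7 on the knockout arrays and 87.1 and 85.0 on the control arrays of day 1.5, 104 and 98.2 on the knockout arrays and 90.1 and 71.1 on the control arrays of day 3, and 118 and 115 on the knockout arrays and 104 and 120.2 on the control arrays of day 6. On day 3 the arrays did not overlap, and the log2 difference of 0.33 ± 0.11 missed the threshold (adjusted p = 0.058). The 95% interval was 0.084 to 0.58. Neither other day passed.

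Hspa1b, by its brightest probe set, read 769.9 and 892 on the knockout arrays and 815 and 830.1 on the control arrays of day 1.5. On day 3 it was at 794 and 789 in knockout cells and at 551 and 623 in control cells. By day 6 it was at 789 and 804 in knockout cells and at 887 and 942 in control cells. Knockout cells therefore stayed between 769.9 and 892 on every day, while control cells were low on day 3. The difference was 0.0105 ± 0.081 on day 1.5 (adjusted p = 0.96), 0.43 ± 0.081 on day 3 (1.35-fold, adjusted p = 0.0046) and -0.20 ± 0.081 on day 6 (adjusted p = 0.099). The other 2 Hspa1b probe sets went the same way: on day 3 they differed by 0.33 ± 0.08 (limma over all probe sets, adjusted p = 0.025) and 0.45 ± 0.11 (adjusted p = 0.023). On day 6 both were called lower, at -0.32 ± 0.08 (adjusted p = 0.021) and -0.435 ± 0.11 (adjusted p = 0.018).

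Hsph1, the Hsp110 chaperone that helps Hsp70 exchange its nucleotide, read 3690 and 3810 on the knockout arrays and 4385 and 4452 on the control arrays of day 1.5. On day 3 the knockout arrays were at 3835 and 3735 and the control arrays at 3137 and 3314. The knockout arrays of day 6 were at 3657 and 3773 and the control arrays at 4287 and 4263. None of the 3 days overlapped. The log2 difference was -0.24 ± 0.051 on day 1.5 (adjusted p = 0.02), 0.23 ± 0.051 on day 3 (adjusted p = 0.01) and -0.20 ± 0.051 on day 6 (adjusted p = 0.014). Leaving out 1 array took away the call of day 1.5 for any of its 4 arrays, that of day 3 for the first control or the first knockout array, and that of day 6 for either control array or the first knockout array. The second Hsph1 probe set moved in the same direction on each day, by -0.23 ± 0.071 (limma over all probe sets, adjusted p = 0.13), 0.39 ± 0.071 (adjusted p = 0.0066) and -0.40 ± 0.071 (adjusted p = 0.0038). In that limma fit the brightest probe set did not pass on day 1.5 either (adjusted p = 0.07), and it passed on days 3 and 6. Hsph1 in knockout cells stayed between 3657 and 3835 on all days.

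The Hsph1 window, shown because it holds more matches than any other of these genes, is chr5:149636266-149636565 on the minus strand of GRCm38.p6 (RefSeq). Capitals mark GAANNTTC and TTCNNGAA, the pair of arrangements in which the GAA repeats of a heat shock element can face each other.
Hsph1: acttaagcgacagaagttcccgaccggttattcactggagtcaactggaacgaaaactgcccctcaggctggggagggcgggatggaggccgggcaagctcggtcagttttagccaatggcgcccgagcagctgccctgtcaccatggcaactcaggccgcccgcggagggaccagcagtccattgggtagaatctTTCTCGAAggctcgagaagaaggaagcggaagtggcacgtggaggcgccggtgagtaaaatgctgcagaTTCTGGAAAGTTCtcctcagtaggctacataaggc
TTCNNGAA begins 54 bases before the start and again 15 bases after it, where it overlaps GAANNTTC, 20 bases after it. RefSeq gives Hsph1 2 windows, which overlap and hold the same matches. TTCNNGAA was added after the windows had been seen, and 8.52% of all windows hold it.

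**Figure D3:**
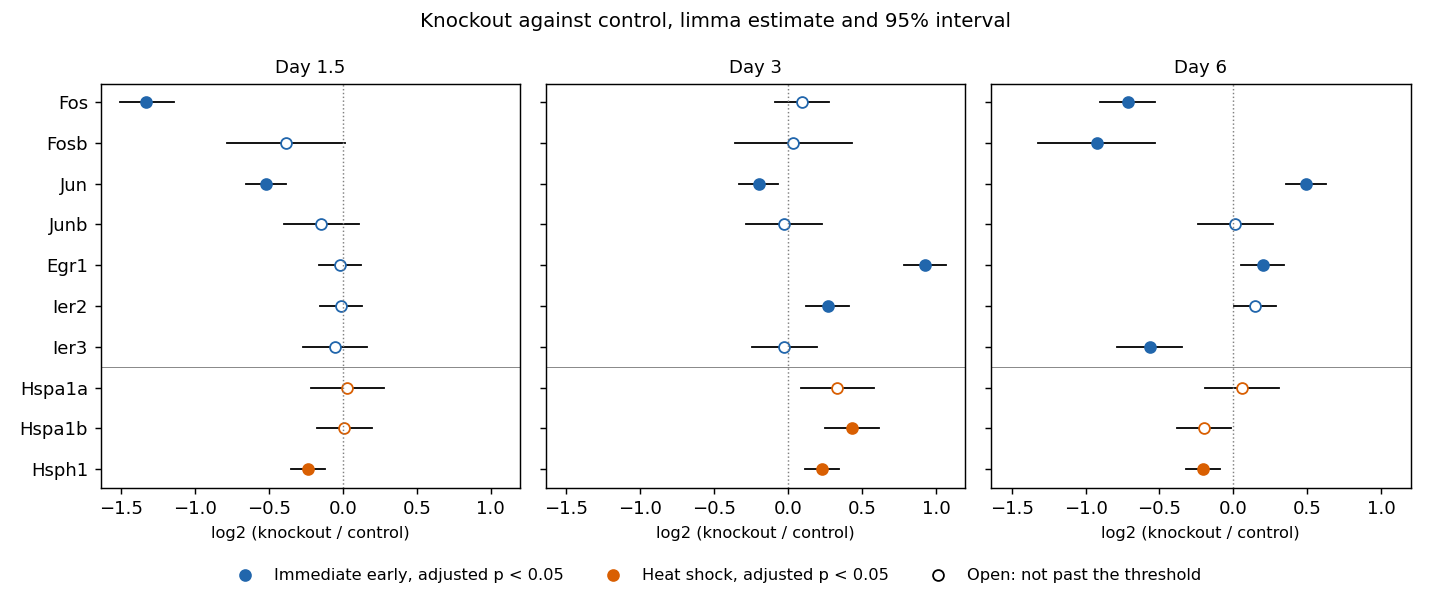
log2 of knockout over control for the 10 genes on days 1.5, 3 and 6, with the limma estimate (point) and its 95% interval (line). Filled points passed the threshold and open points did not. Fos, Jun and Hsph1 lie left of 0 on day 1.5, Egr1 is farthest right on day 3, and Fosb and Fos are farthest left on day 6.

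Counted together, 0 members were higher and 3 were lower in knockout cells on day 1.5 (Fos, Jun and Hsph1), where 5.93% of all genes were higher and 3.98% lower. On day 3, 4 were higher (Egr1, Ier2, Hspa1b and Hsph1) and 1 lower (Jun), where 13.3% of all genes were higher and 10.0% lower. The count of day 6 was 2 higher (Jun and Egr1) and 4 lower (Fos, Fosb, Ier3 and Hsph1), where 17.2% were higher and 15.3% lower. The 1 lower member of day 3 of 10 is at the background share. Over the 3 days in order, the 10 members had median log2 differences of -0.099, 0.16 and -0.092, and all genes 0.0028, 0.028 and -0.0013. Without the first control, the first knockout or the second knockout array of day 3, 3 members were called on that day instead of 5.

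The differences between days were tested directly, as the knockout effect of a later day minus that of an earlier one. From day 1.5 to day 3 the effect moved up for 5 members (Fos, Jun, Egr1, Hspa1b and Hsph1) and down for 0, where 7.62% and 7.34% of all genes moved up and down. From day 3 to day 6 it moved up for 1 (Jun, by 0.69 ± 0.084, adjusted p = 0.0011) and down for 6 (Fos, Fosb, Egr1, Ier3, Hspa1b and Hsph1), where 7.69% and 8.75% of all genes did. Between days 1.5 and 6 it moved up for 2 (Fos and Jun) and down for 1 (Ier3), where 9.32% and 10.0% did. The first of these counts dropped to 3 without the first knockout array of day 1.5 or without either knockout array of day 3. These comparisons share arrays with each other and with the daily comparisons, so they are not separate evidence. Calls among them that were lost under other alternatives are given in the closing sections.

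Changes between days were also tested within each genotype. In control cells, Fos was lower on day 3 than on day 1.5 (log2 -1.79 ± 0.081, adjusted p = 2.7e-06) and higher on day 6 than on day 3 by 1.92 ± 0.081 (3.78-fold, adjusted p = 1.4e-06). Both differences were smaller for each of the other 9 members.

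**Figure D4:**
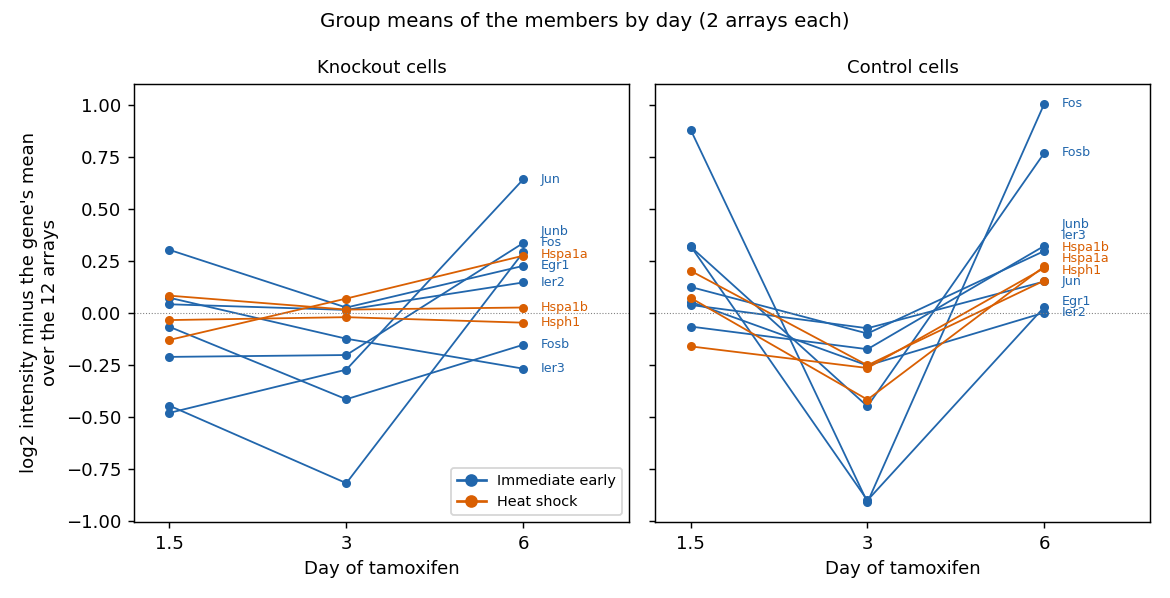
Group means of log2 intensity for each gene, less the gene's own mean over the 12 arrays, by day of tamoxifen, for knockout cells (left) and control cells (right). In control cells all 10 lines are lowest on day 3 and rise to day 6, whereas in knockout cells the lines of Hspa1b and Hsph1 are nearly flat and Jun ends highest.

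Day 3 of the control cells, against day 1.5, had 0 members higher and 6 lower (Fos, Fosb, Egr1, Ier2, Hspa1b and Hsph1), where 9.12% of all genes were higher and 18.2% lower. From day 3 to day 6 they had all 10 higher and 0 lower, where 19.5% and 8.01% were. The rise ranged from 0.225 for Jun to 1.92 for Fos (log2), with Fosb at 1.22 ± 0.18 (adjusted p = 0.0013) and Egr1 at 0.93 ± 0.064 (adjusted p = 3.2e-05). The second Jun probe set rose by 0.11 ± 0.089 (limma over all probe sets, adjusted p = 0.45). The Jun and Ier2 calls were lost with median centring, with quantile normalization and in a fit to only the arrays compared. The Ier3 call was lost with quantile normalization, and the Hspa1a call in a fit to only the arrays compared. Without the second control array of day 3, 6 members were called, and without the second of day 6, 5. Between days 6 and 1.5 of control cells, limma called 0 members in either direction, where 1.09% of all genes were higher and 0.473% lower. At an unadjusted p under 0.05, 3 were higher (Fosb, Junb and Hspa1a) and 1 lower (Egr1). The comparisons that include day 3 of control cells share those 2 arrays, which also enter knockout against control on day 3.

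Knockout cells of day 3 against day 1.5 had 1 member higher (Jun, 0.21 ± 0.059, adjusted p = 0.038) and 2 lower (Fos, -0.37 ± 0.081, adjusted p = 0.013, and Egr1), where 6.97% and 13.7% of all genes were. The second Jun probe set was at 0.028 ± 0.089 (limma over all probe sets, adjusted p = 0.88). In that limma fit the brightest Jun probe set did not pass either (adjusted p = 0.078). With the mean of all probe sets the Jun call was lost. Without the first knockout array of day 1.5 or the first of day 3 no member was called, and without the second of day 3, 1. From day 3 to day 6 the knockout cells had 4 higher (Fos, Jun, Junb and Egr1) and 0 lower, where 20.5% and 13.0% were. Fos was higher there by 1.11 ± 0.081 (adjusted p = 1.9e-05) and Jun by 0.915 ± 0.059 (adjusted p = 1e-05). The Egr1 call (0.20 ± 0.064, adjusted p = 0.039) was lost when any 1 of the 4 arrays was left out. Day 6 against day 1.5 gave 4 higher (Fos, Jun, Junb and Hspa1a) and 1 lower (Ier3), where 15.9% and 14.3% were, and 3 were called without the first knockout array of day 1.5 or without either of day 6. None of the 3 heat shock genes passed between adjacent days in knockout cells by limma, also with p unadjusted.

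Since the control arrays of day 3 stood apart, the knockout arrays of day 3 were also set against the averaged control levels of days 1.5 and 6. Then 0 members were higher and 6 lower, where 10.0% of all genes were higher and 15.5% lower. Fos was lower by the widest margin (-1.76 ± 0.07, adjusted p = 6.5e-07), ahead of Fosb (-0.96 ± 0.15, adjusted p = 0.0019), Jun (-0.37 ± 0.051, adjusted p = 0.00099), Ier3 (-0.335 ± 0.083, adjusted p = 0.018), Junb (-0.33 ± 0.098, adjusted p = 0.036) and Hsph1 (-0.20 ± 0.044, adjusted p = 0.01). None of the 4 members that were higher against the controls of day 3 kept that direction. Egr1 was at -0.15 ± 0.055 (adjusted p = 0.079), Ier2 at -0.013, Hspa1b at -0.13 and Hsph1 as above. In it, day and genotype cannot be told apart.

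Over the 12 arrays the widest range of any member was that of Fos, with a log2 span of 2.07, against an SD of 0.084 within groups. Fosb spanned 1.39, Egr1 1.32, Jun 1.17, and Hsph1 0.505 with an SD of 0.032. Fos, Fosb, Egr1, Ier2, Hspa1a, Hspa1b and Hsph1 had their lowest group mean in control cells of day 3, Jun and Junb in knockout cells of day 1.5, and Ier3 in knockout cells of day 6. Across the arrays, which share groups and days, Fos and Fosb had a Pearson r of 0.848, Egr1 and Ier2 0.89, Jun and Junb 0.813, and Hspa1b and Hsph1 0.835. Fos and Hsph1 had 0.826, while Jun and Ier3 had -0.294. Profiles over the 12 arrays were also ranked for the non-member genes among the brightest 60% of genes, as a description without a test. The genes among them most like the mean of the 7 immediate early genes were Krtdap (r = 0.988), Serpinh1 (0.981), Bud31 (0.976), Phldb2 (0.975) and Lama1 (0.973). Those most like the 3 heat shock genes were Rbm15b (0.952), Nefl (0.933), Flnc (0.93), Cd151 (0.925) and Cdc27 (0.924).

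The other immediate early genes, a list of 40 without the members, also had genes called in both directions. In knockout cells 2 were higher and 7 lower on day 1.5, 9 and 7 on day 3, and 13 and 5 on day 6, against the shares of all genes given above. The 2 higher of day 1.5 are near the share of all genes, 5.93%, and the 5 lower of day 6 are under the 15.3% of that day. Ccn1, a secreted matrix protein, averaged 613 ± 20.6 in knockout cells and 892 ± 13.4 in control cells of day 1.5 (SD, n = 2; log2 -0.54, limma adjusted p = 0.00053). It averaged 400.5 ± 12.1 in knockout cells and 200.0 ± 5.05 in control cells of day 3 (log2 1.00, limma adjusted p = 3.6e-06). By day 6 it was at 1865 ± 18.1 in knockout cells and 852 ± 3.18 in control cells (log2 1.13, limma adjusted p = 6.9e-07). Ptgs2, the inducible cyclooxygenase, was higher by 0.84 on day 3 and by 1.85 on day 6 (limma adjusted p = 1.7e-06), and Ccn2 by 1.04 on day 6 (limma adjusted p = 3.5e-06). Atf3, an AP-1 partner, had a log2 difference of -0.69 on day 1.5 (limma adjusted p = 0.0066). Myc was higher on day 3 (0.78), whereas Btg1 (-0.975) and Dusp1 (-0.61), a phosphatase that switches off MAP kinases, were lower. Hbegf (-0.73), Pim1 (-0.63) and Zfp36 (-0.37) were lower on day 6. Mcl1, the brightest of the list, passed on no day. The 2 higher of day 1.5 became 0 without either control array or the second knockout array, and the 5 lower of day 6 became 3 without the second control or the first knockout array. Against the controls of days 1.5 and 6, 5 of the 40 were higher and 15 lower in knockout cells of day 3. Of all genes, 10.0% were higher and 15.5% lower there, so the 5 higher are near the share of all genes.

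Of the genes that act upstream, 11 of 14 were measured. In knockout cells 1 was higher and 1 lower on day 1.5 (Rps6ka5, 0.37, and Elk3, -0.29), 1 and 1 on day 3 (Mrtfb, 0.19, and Rps6ka3, -0.37) and 3 and 0 on day 6. The 1 lower gene of day 3 is near the share of all genes, 10.0%, and the 1 higher is under the 13.3% of that day. The 3 of day 6 were Mrtfb, an actin-regulated partner of serum response factor (0.785 ± 0.059, limma adjusted p = 1.3e-05), Crem (0.50) and Atf2 (0.36). Srf itself passed on no day, with log2 differences of -0.12, 0.16 and -0.08. The 9 genes that ERK signalling induces and that feed back on it had 2 higher and 0 lower on day 1.5, 1 and 3 on day 3, and 2 and 5 on day 6. The 1 higher of day 3 and the 2 higher of day 6 are near the shares of all genes, 13.3% and 17.2%. Dusp4 averaged 180 ± 10.2 in knockout cells and 418 ± 11.1 in control cells of day 3 (SD, n = 2; log2 -1.22, limma adjusted p = 1.4e-05), and was at a log2 difference of -0.765 on day 6. Spry1 was lower on both days (-0.80 and -0.55), Etv4 and Etv5 on day 6 (-0.535 and -0.50), while Spred1 was higher on each day (0.23, 0.40 and 0.535). Without any 1 of the 4 arrays compared, this list's count of day 1.5 was 0 or 1, as were the upstream counts of days 1.5 and 3. The 2 higher of day 6 became 1 without the second control or the first knockout array.

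**Figure D5:**
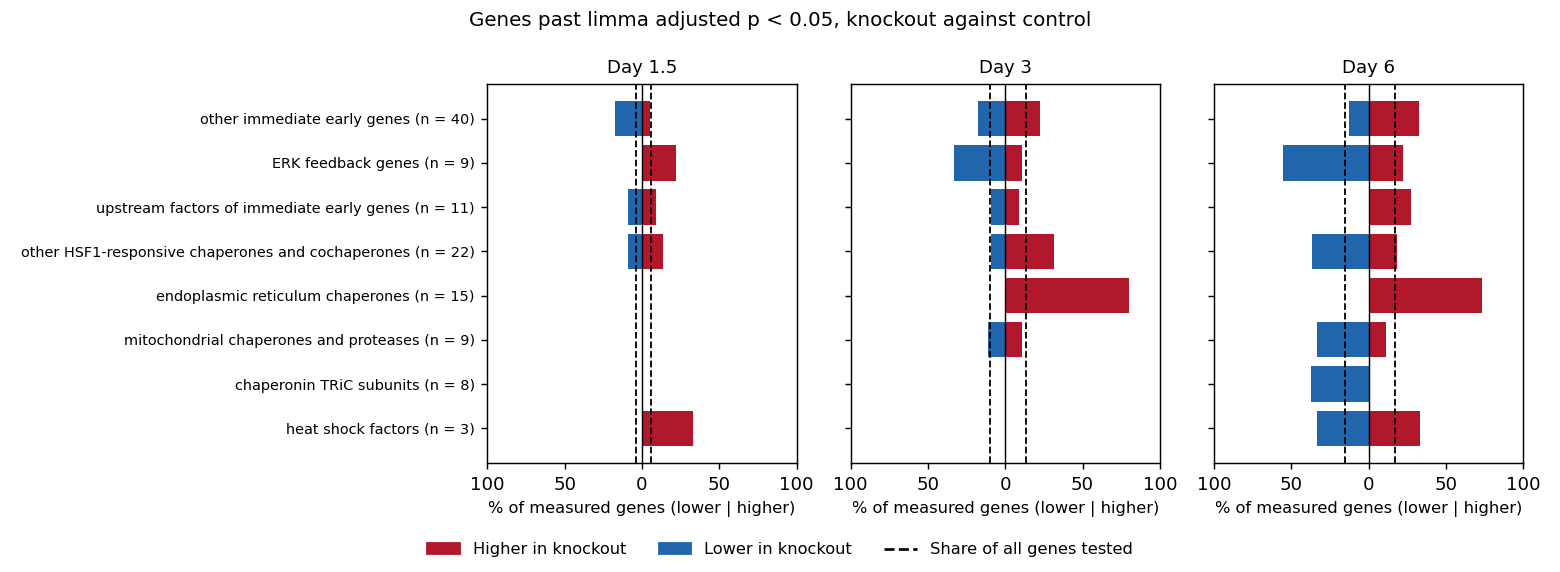
Share of the measured genes of 8 lists that passed the threshold in knockout against control, to the right where higher and to the left where lower, on days 1.5, 3 and 6. Dashed lines mark the share of all genes tested. The endoplasmic reticulum chaperones stand at 12 and 11 of 15 higher on days 3 and 6.

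Among 22 of 25 other chaperones and cochaperones linked to heat shock factor 1, 3 were higher and 2 lower in knockout cells on day 1.5, 7 and 2 on day 3, and 4 and 8 on day 6. The 2 lower of day 3 and the 4 higher of day 6 are near the shares of all genes, 10.0% and 17.2%. Dnajb1, the Hsp40 that feeds clients to Hsp70, was higher on day 3 (0.435 ± 0.049, limma adjusted p = 0.00026) and on day 6 (0.30 ± 0.049, limma adjusted p = 0.0013). Hmox1 was higher by 0.40 and 0.61 on these days. Bag3, a cochaperone of Hsp70 in selective autophagy, was lower on day 3 (-0.33) and on day 6 (-0.77 ± 0.059, limma adjusted p = 1.5e-05). Fkbp4 (-0.47) and Ahsa2 (-0.39), which both assist Hsp90, were lower on day 6, and Hspb8 was lower on day 3 (-0.715). The small heat shock protein Cryab was lower on day 1.5 (-0.805) and higher on day 3 (0.56). Dnajb4 was higher on days 1.5 and 6 (0.67 each). Hspa8, the constitutive Hsp70 and the brightest of the list, passed on no day, with averages of 21340 ± 334 in knockout and 22310 ± 492 in control cells of day 6. Leaving out any 1 of the 4 arrays of day 1.5 left 0 or 1 higher and 1 lower. The 7 higher of day 3 became 4 without the first knockout array and 5 without any other array. Against the controls of days 1.5 and 6, 1 of the 22 was higher and 4 lower, where 10.0% of all genes were higher and 15.5% lower. The 4 lower are near that share.

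The endoplasmic reticulum chaperones that passed the test were all higher in knockout cells. Of 15, limma called 0 on day 1.5 (2 at an unadjusted p under 0.05), 12 were higher and 0 lower on day 3, and 11 were higher and 0 lower on day 6, with median log2 differences of -0.085, 0.22 and 0.27. At the head were Creld2 (0.59) and Pdia3 (0.48) on day 3, and Dnajb9 on day 6, at 979.6 ± 28.2 in knockout cells and 452 ± 5.7 in control cells (SD, n = 2; log2 1.11, limma adjusted p = 1.1e-06). Hspa5, the Hsp70 of that compartment, was higher by 0.17 on both days. Fewer were called on day 3 without the first knockout array of that day. Against the controls of days 1.5 and 6, 4 were higher and 0 lower, where 10.0% and 15.5% of all genes were.

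Of the other folding machinery, the 9 mitochondrial chaperones and proteases had 0 called by limma on day 1.5 (0 also at an unadjusted p under 0.05), 1 higher (Clpp, 0.72) and 1 lower (Dnaja3, -0.18) on day 3, and 1 higher (Clpp, 0.48) and 3 lower on day 6 (Dnaja3, Trap1 and Hspd1, between -0.24 and -0.21). The 1 higher and 1 lower of day 3 are near the shares of all genes (13.3% and 10.0%), and the 1 higher of day 6 is under the 17.2% of that day. The Dnaja3 call of day 3 was lost without the first control array or either knockout array. The day 6 count of lower genes was 0 without the second control array and 1 without the first knockout array. Of the 8 subunits of the cytosolic chaperonin TRiC, limma called 0 on days 1.5 and 3 (0 also at an unadjusted p under 0.05), and 3 were lower on day 6 (Cct8, -0.27, Tcp1, -0.25, and Cct2, -0.18), where 15.3% of all genes were lower. The list of heat shock factors had 3 genes measured, of which Hsbp1 is not a factor but a negative regulator of heat shock factor 1. Hsbp1 was higher on day 1.5 (0.22) and day 6 (0.48 ± 0.053, limma adjusted p = 0.00016), and Hsf2 was lower on day 6 (-0.425). Of all genes, 5.93% were higher on day 1.5, and 17.2% were higher and 15.3% lower on day 6. The Hsbp1 call of day 1.5 was lost without any 1 of its arrays. Hsf1 was not analysed here.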

How the data were processed

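The authors deposited 1 intensity per probe set and array. Per the submitters' processing notes these come from RMA, with no version named. The values, from 5.511 to 34993, are on a linear scale, so log2 was taken here, although log2 values had been assumed. The submitters' deposited table of 45101 probe sets was joined to the platform annotation, where 34958 had 1 gene symbol, 932 several and 9211 none. The brightest probe set per gene gave 18194 genes. Array medians ran from 42.37 to 44.72. Groups were compared with limma 3.58.1 (R 4.3.3), a mean per group over all 12 arrays (residual degrees of freedom 6, prior 3.04) and Benjamini-Hochberg adjustment over all genes. The fit was tested on simulated data. Plots used matplotlib 3.10.9. The members and lists were chosen with earlier results of these data known. From each list, up to 3 called genes per direction and day with the largest change and the brightest gene were eligible to be named. Srf, Esrrb, Pou5f1, Nanog and Sox2 were named outside that rule, after their values were seen. Promoter motifs were searched on both strands. Same-numbered arrays of different groups correlated between -0.0573 and 0.173 in their deviations over 15 pairs of groups, so the numbers do not pair the samples. The number of arrays limits the precision.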

Additional observations from a re-analysis of the deposited data

Results flagged for a closer look

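The knockout effect differed between days for several members, by the direct limma test over all genes. From day 1.5 to day 3 it moved up by 1.42 ± 0.12 for Fos (adjusted p = 0.00017), 0.95 ± 0.09 for Egr1 (0.00035), 0.47 ± 0.072 for Hsph1 (0.0032), 0.42 ± 0.12 for Hspa1b (0.039) and 0.32 ± 0.084 for Jun (0.033). From day 3 to day 6 Jun moved up by 0.69 ± 0.084 (0.0011), and the change was -0.81 ± 0.12 for Fos (0.0023), -0.96 ± 0.25 for Fosb (0.03), -0.73 ± 0.09 for Egr1 (0.0012), -0.54 ± 0.14 for Ier3 (0.027), -0.63 ± 0.12 for Hspa1b (0.0068) and -0.43 ± 0.072 for Hsph1 (0.0045). From day 1.5 to day 6 it was 1.01 ± 0.084 for Jun (7.3e-05), 0.61 ± 0.12 for Fos (0.0059) and -0.51 ± 0.14 for Ier3 (0.028). The values in brackets are limma adjusted p. Not all of these calls held. The Jun call from day 1.5 to day 3 was lost with the mean of all probe sets. The second Jun probe set gave 0.14 ± 0.13 there (limma over all probe sets, adjusted p = 0.6). In that limma fit the brightest Jun probe set did not pass either (adjusted p = 0.088). The Hspa1b call of those days was lost with quantile normalization. A fit to only the arrays compared lost both calls and that of Ier3 from day 3 to day 6. Leaving out 1 array lost the Fosb call for every array compared but the second knockout array of day 3. For most of the arrays compared, leaving out 1 also lost the Jun and Hspa1b calls from day 1.5 to day 3 and both Ier3 calls. The control arrays of day 3 enter every difference that includes day 3, and their part in it was not tested.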

How the results depend on the processing

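Counts of members called held within 1.5 times under the other alternatives run, except as follows. Control cells of day 6 against day 1.5, with 0, had 1 with median centring, 1 without the dimmest 40% and 2 with the trended, robust eBayes. Fitting only the arrays compared left 2 for knockout against control on day 3 (5 with all arrays), 3 for the effect of day 3 minus that of day 1.5 (5) and 1 for knockout cells of day 3 against day 1.5 (3). Leaving out 1 array gave 3 to 4 members for knockout against control on day 3, 3 to 4 for the effect of day 3 minus that of day 1.5, 0 to 2 and 3 to 4 for knockout cells of days 3 and 6 against day 1.5, and 5 to 8 for control cells of day 6 against day 3. Against the controls of days 1.5 and 6, the day 3 differences turned to -1.76 (Fos), -0.96 (Fosb), -0.15 (Egr1), -0.013 (Ier2), -0.13 (Hspa1b) and -0.20 (Hsph1). The cause of these changes was not tested. Alternatives for the lists' counts were chosen after seeing the data. Of single members' values, 1293 kept direction and side, 112 lost a call, 27 gained one and 6 turned. The replicate block gave 5 members called on day 6, against 6 without it, losing Egr1, and 3 against 4 for knockout cells of day 6 against day 3, and moved no other count of members. With 2 arrays a group the precision is limited, and an array has no read depth.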
